A study of Mus musculus with 20 samples.

Results

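Inflammatory signalling in the hippocampus was followed through 39 genes: cytokines and chemokines, their receptors and adaptors, transcription factors of the NF-kappaB, STAT and C/EBP families, feedback inhibitors, endothelial adhesion molecules, mediator enzymes and acute-phase proteins. They were taken by symbol from a named list, with no threshold on their values. The list was chosen with earlier results of these data known. All 39 were found among the 57126 gene identifiers counted, and 34 were among the 18648 genes that passed a filter on low counts and were tested. Il1b, Tnf, Ccl2, S100a8 and Selp did not pass it and are given as read pairs and, where fitted, from a fit with no filter.

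NF-kappaB dimers are held in the cytoplasm by IkappaB proteins until ligands such as interleukin-1, TNF or microbial products act on their receptors, and the freed dimers induce cytokines, adhesion molecules and their own inhibitors. Interleukin-6 family cytokines signal through the shared subunit gp130 to STAT3, which induces acute-phase proteins and the inhibitor Socs3. Glucocorticoids, acting through their receptor Nr3c1, are known to restrain both routes in many cells, and in the brain the genes of these routes are used by microglia, astrocytes and the cells of blood vessels.

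The 20 libraries, 1 per mouse, came from whole hippocampus of male C57BL/6 mice and fell into 4 groups of 5: homozygous GRA knockin mice given dexamethasone (Dex), knockin mice given PBS, wild-type mice given Dex, and wild-type mice given PBS. The knockin carries an exon 2 of Nr3c1 in which the start codons of 7 shorter receptor forms are mutated, leaving that of full-length GRA; the labels name no driver that would limit it to a cell type. Every group, PBS included, had been adrenalectomized at about 2.5 months of age, and 2 weeks later received 1 mg/kg Dex, a synthetic glucocorticoid, or vehicle by intraperitoneal injection 6 h before the tissue was taken. Libraries held 11493014 to 48267708 read pairs assigned to genes, and levels are given as CPM, read pairs scaled to library size. Nr3c1 averaged 112 ± 8.69 CPM in knockin Dex, 163 ± 24.1 CPM in knockin PBS, 98.6 ± 8.27 CPM in wild-type Dex and 136 ± 21.8 CPM in wild-type PBS libraries (SD, n = 5 each). Gene counts do not resolve start codons, so the genotype labels were not checked by them. In bulk tissue, fewer cells of a type and less RNA per cell cannot be told apart.

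The promoters of 4 members show the sequence level of the feedback described here: Nfkbia and Tnfaip3, inhibitors that NF-kappaB itself induces, Tlr2, a receptor of the same pathway, and Socs3, the inhibitor that STAT3 induces. Each runs from 250 bases before to 50 bases after the gene's start, on the minus strand of GRCm38.p6 as given by RefSeq; capitals mark a match to the kappaB consensus, or for Socs3 to the STAT dimer site TTCNNNGAA. The windows are chr12:55492598-55492897 for Nfkbia, chr10:19015361-19015660 for Tnfaip3, chr3:83841559-83841858 for Tlr2 and chr11:117969317-117969616 for Socs3.
Nfkbia: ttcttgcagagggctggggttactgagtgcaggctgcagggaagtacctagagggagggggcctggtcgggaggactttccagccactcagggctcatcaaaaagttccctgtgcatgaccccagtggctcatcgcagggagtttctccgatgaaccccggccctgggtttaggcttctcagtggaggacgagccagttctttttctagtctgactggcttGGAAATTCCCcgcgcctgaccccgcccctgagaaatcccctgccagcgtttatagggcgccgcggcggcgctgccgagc
Tnfaip3: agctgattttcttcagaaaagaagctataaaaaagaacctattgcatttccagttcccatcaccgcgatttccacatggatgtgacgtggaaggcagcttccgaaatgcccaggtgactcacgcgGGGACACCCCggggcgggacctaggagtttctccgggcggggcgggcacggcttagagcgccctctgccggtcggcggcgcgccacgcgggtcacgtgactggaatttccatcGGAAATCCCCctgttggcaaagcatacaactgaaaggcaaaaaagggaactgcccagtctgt
Tlr2: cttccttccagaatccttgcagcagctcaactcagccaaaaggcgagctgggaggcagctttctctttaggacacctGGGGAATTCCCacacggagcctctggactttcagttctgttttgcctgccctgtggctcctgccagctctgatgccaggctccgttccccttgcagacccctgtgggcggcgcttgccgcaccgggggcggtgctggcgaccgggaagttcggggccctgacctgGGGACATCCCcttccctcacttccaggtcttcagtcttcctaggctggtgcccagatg
Socs3: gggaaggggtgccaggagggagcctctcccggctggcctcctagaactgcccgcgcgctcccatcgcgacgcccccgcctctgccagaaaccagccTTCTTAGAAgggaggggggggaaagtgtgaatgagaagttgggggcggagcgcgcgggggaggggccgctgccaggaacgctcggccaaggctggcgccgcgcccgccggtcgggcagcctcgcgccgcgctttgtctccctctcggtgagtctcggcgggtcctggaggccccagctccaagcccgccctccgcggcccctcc
Counted from the first base upstream of the start as -1, the match in Nfkbia began at -29, those in Tnfaip3 at -125 and -12, those in Tlr2 at -173, -172 and -8, and that in Socs3 at -154. The first 2 matches in Tlr2 overlap and form 1 run of capitals. On either strand, the kappaB consensus was found in 8 of 36 windows belonging to 30 members with a window in the table, spread over 6 genes (Il1r1, Nfkb2, Nfkbia, Steap4, Tlr2 and Tnfaip3), against 4.51% of all 32851 windows. The STAT site was found in 8 of the 36 windows, against 8.3% of all. The palindromic glucocorticoid response element was in 0 of the 36 windows and in 0.475% of all. These matches describe letters in a short window and say nothing of binding.

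Per kilobase of exon, the scale on which genes can be compared, mean levels over the 20 libraries ran from 15.0 CPM per kb for Irak1, a kinase downstream of the interleukin-1 receptor, down to 0.0276 CPM per kb for the cytokine gene Tnf. After Irak1 came Nfkbia (13.8 CPM per kb), the chemokine gene Cxcl12 (11.9), the adhesion molecule gene Vcam1 (9.00), the gp130 gene Il6st (8.99) and Stat3 (8.01). Tlr2 was at 0.380 CPM per kb, the oxysterol enzyme gene Ch25h at 0.290, Selp at 0.221, Sele at 0.217, Il1b at 0.141 and Ccl2 at 0.0571.

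In knockin mice Dex changed 10 of the 34 tested members, 3 higher and 7 lower, and in wild-type mice 7, 4 higher and 3 lower (edgeR quasi-likelihood test, Benjamini-Hochberg adjusted p below 0.05 over all 18648 genes). The background was 10% of the 18648 genes in knockin mice (5.28% higher, 4.71% lower) and 9.21% in wild-type mice (5.27% higher, 3.94% lower). The members' shares were 29.4% in knockin mice (8.82% higher, 20.6% lower) and 20.6% in wild-type mice (11.8% higher, 8.82% lower). Since the members were chosen with earlier results of these data known, these shares are a description. Nfkbia, Il6ra and Lifr rose and Il6st fell in both genotypes. The other called members in knockin mice, Osmr, Tlr2, Tnfrsf1b, Rela, Sele and Ch25h, were lower; in wild-type mice Tnfaip3 and Cxcl12 were lower and Lcn2 was higher. The median log2 fold change of the 34 was -0.18 in knockin and -0.04 in wild-type mice, while that of all genes was near 0. For the mean response of both genotypes 12 members were called, 4 higher and 8 lower, against a background of 18.2% of genes (9.79% higher, 8.41% lower). The knockin and mean-response counts and shares include Sele, which passed the filter through PBS libraries only (5 PBS and 0 Dex libraries). Its call is therefore a description.

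**Figure D1:**
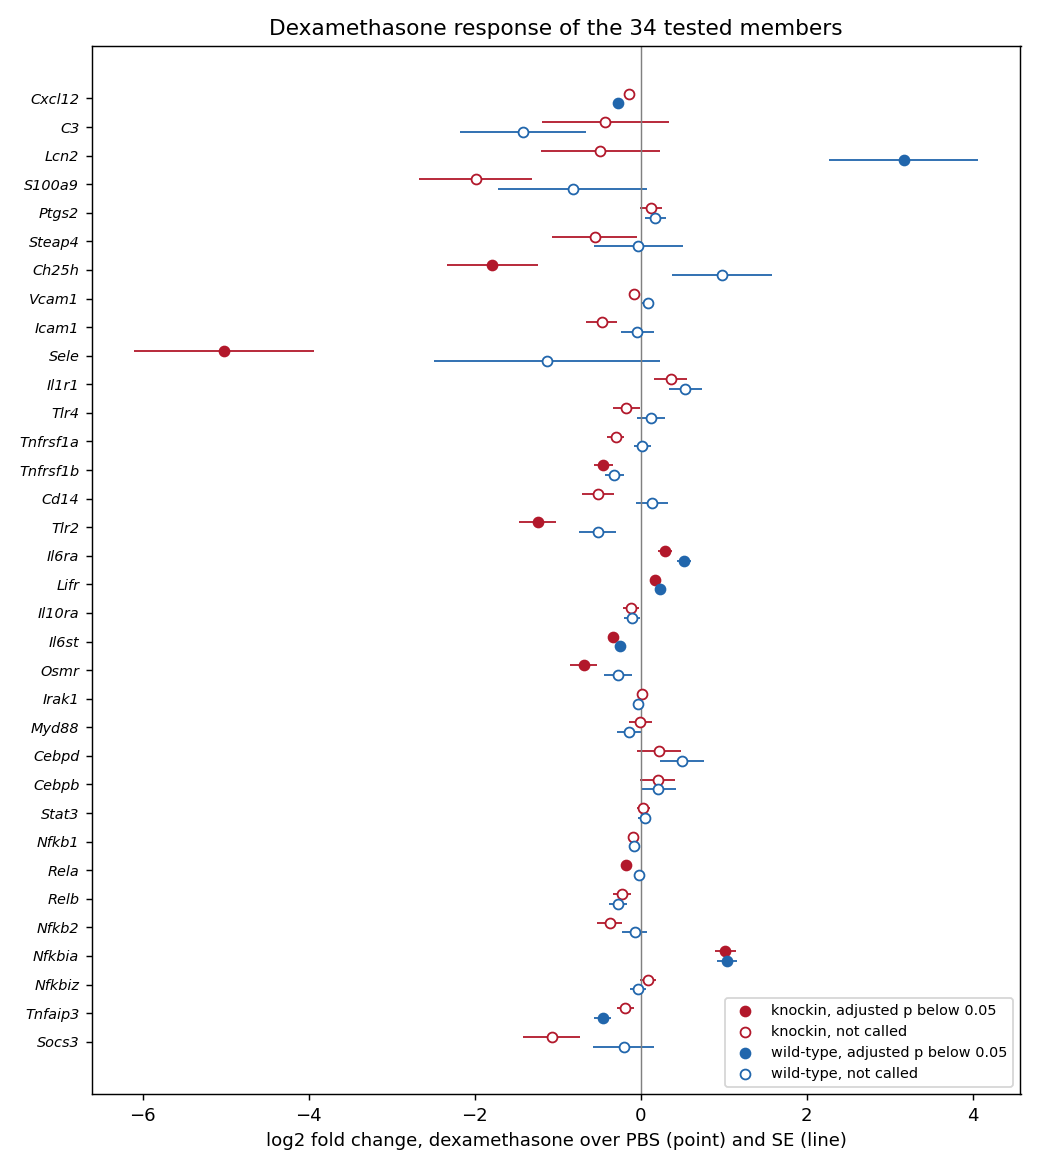
Log2 fold change of Dex over PBS for the 34 tested members, knockin in red and wild-type in blue; points are the fitted values, lines their SE, and filled points passed adjusted p below 0.05. Nfkbia lies at 1.02 in knockin and 1.04 in wild-type mice, while Lcn2 is filled on the right for wild-type alone (3.17) and Sele on the far left for knockin alone (-5.02).

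Cxcl12, which encodes the chemokine that retains leukocytes and guides neural precursors, was the one ligand expressed well enough to test. Cxcl12 had 78.8, 85.5, 79.3, 76.9 and 95.6 CPM in knockin Dex libraries (replicates 1 to 5, the order used throughout) and 85.6, 86.6, 93.6, 93.4 and 103 CPM in knockin PBS libraries. In wild-type mice it had 73.6, 79.4, 75.1, 68.7 and 80.0 CPM under Dex and 86.5, 97.4, 84.7, 87.9 and 97.5 CPM under PBS. The wild-type groups did not overlap, as for 3.68% of all genes in this direction, and the knockin groups did. Cxcl12 fell by 0.27 on the log2 scale in wild-type mice (SE 0.061, adjusted p = 0.00424), and its value in knockin mice was -0.15 (SE 0.06, adjusted p = 0.142).

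The classical inflammatory cytokines stood at 0 to 17 read pairs per library. Il1b, encoding interleukin-1 beta, had 5, 5, 2, 5 and 2 read pairs in knockin Dex, 6, 9, 8, 17 and 0 in knockin PBS, 2, 2, 5, 0 and 2 in wild-type Dex, and 7, 3, 7, 1 and 5 in wild-type PBS libraries. Tnf had at most 3 read pairs in any library and was at 0 in 7 of 20. Ccl2, the monocyte-attracting chemokine gene, was at 0 in 11 of 20 libraries and reached 10 read pairs in knockin PBS replicate 4. A count of 0 allows up to 3 read pairs, which is 0.0629 CPM in the deepest library and 0.261 CPM in the shallowest, counting error alone. At this depth no response of Il1b, Tnf or Ccl2 was called. Fitted with no filter on low counts, their knockin log2 fold changes were -1.37, -1.88 and -2.22 with adjusted p from 0.104 to 0.464. In the same edgeR fit their wild-type values were -0.80, 1.96 and -1.59, with adjusted p from 0.419 to 0.657. The mean response was -1.08 for Il1b (SE 0.382, adjusted p = 0.0625), 0.04 for Tnf and -1.90 for Ccl2 (adjusted p = 0.149). Without knockin PBS replicate 4, in a fit chosen after the data were seen, the knockin values were -0.982, -1.805 and -0.704. The mean response of Il1b was then -0.891 (adjusted p = 0.203).

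Among the interleukin-6 family receptors, the ligand-binding subunit Il6ra and the LIF receptor Lifr rose with Dex while the shared gp130 subunit Il6st and the oncostatin M receptor Osmr fell. Of the 5 receptors of this group, 2 rose and 2 fell in knockin mice, and 2 rose and 1 fell in wild-type mice. Of all genes, 5.28% were called higher and 4.71% lower in knockin mice, and 5.27% and 3.94% in wild-type mice. Il10ra, the interleukin-10 receptor, was at -0.11 in each genotype (adjusted p = 0.569 in knockin and 0.601 in wild-type mice). Il6ra had 11.5, 12.7, 13.6, 13.7 and 11.9 CPM in knockin Dex and 9.58, 9.93, 10.4, 11.3 and 10.4 CPM in knockin PBS libraries. In wild-type mice Il6ra had 14.0, 15.5, 11.4, 12.1 and 15.1 CPM under Dex and 9.73, 10.9, 9.69, 8.68 and 8.28 CPM under PBS. Neither pair of groups overlapped; non-overlap with Dex higher held for 4.65% of all genes in knockin and 4.54% in wild-type mice. Il6ra rose by 0.29 log2 units in knockin mice (SE 0.087, adjusted p = 0.0271) and by 0.52 in wild-type mice (SE 0.087, adjusted p = 0.000143). Its knockin call was lost without any 1 of knockin Dex replicates 2, 3 or 4 or knockin PBS replicates 1, 2 or 3 (adjusted p up to 0.0841).

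Il6st ran the other way in each library. Il6st had 90.9, 90.1, 81.5, 89.6 and 86.4 CPM in knockin Dex and 111, 102, 113, 122 and 105 CPM in knockin PBS libraries. It had 84.0, 86.1, 94.5, 90.7 and 93.1 CPM in wild-type Dex and 112, 111, 107, 106 and 98.9 CPM in wild-type PBS libraries. Dex libraries were below every PBS library in both genotypes (4.03% of all genes in knockin mice). Il6st fell by 0.33 in knockin mice (SE 0.046, adjusted p = 8.03e-06) and by 0.25 in wild-type mice (SE 0.046, adjusted p = 0.000444). Lifr, which pairs with gp130, had 61.0, 56.2, 68.2, 65.8 and 62.8 CPM in knockin Dex and 57.5, 55.5, 55.8, 55.9 and 53.6 CPM in knockin PBS libraries. In wild-type mice Lifr had 62.6, 63.4, 63.8, 65.7 and 66.6 CPM under Dex and 57.9, 55.3, 51.9, 55.5 and 54.1 CPM under PBS. The knockin groups overlapped by 1 library and the wild-type groups did not. Lifr rose by 0.17 in knockin mice (SE 0.042, adjusted p = 0.00779) and 0.23 in wild-type mice (SE 0.043, adjusted p = 0.000448).

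Osmr had 6.75, 7.92, 5.19, 5.61 and 6.50 CPM in knockin Dex and 9.01, 9.05, 7.96, 16.1 and 8.88 CPM in knockin PBS libraries. In wild-type mice Osmr had 6.09, 6.71, 6.76, 8.45 and 6.34 CPM under Dex and 8.45, 7.37, 8.07, 9.59 and 8.05 CPM under PBS. The knockin groups did not overlap, the wild-type groups did, and knockin PBS replicate 4 stood far above the rest. Osmr fell by 0.69 in knockin mice (SE 0.159, adjusted p = 0.00582) and, without that library, by 0.45, still called. In wild-type mice its value was -0.28 (SE 0.164, adjusted p = 0.386). The difference of the responses was -0.41 (SE 0.229, unadjusted p = 0.0869), so the genotypes were not shown to differ.

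**Figure D2:**
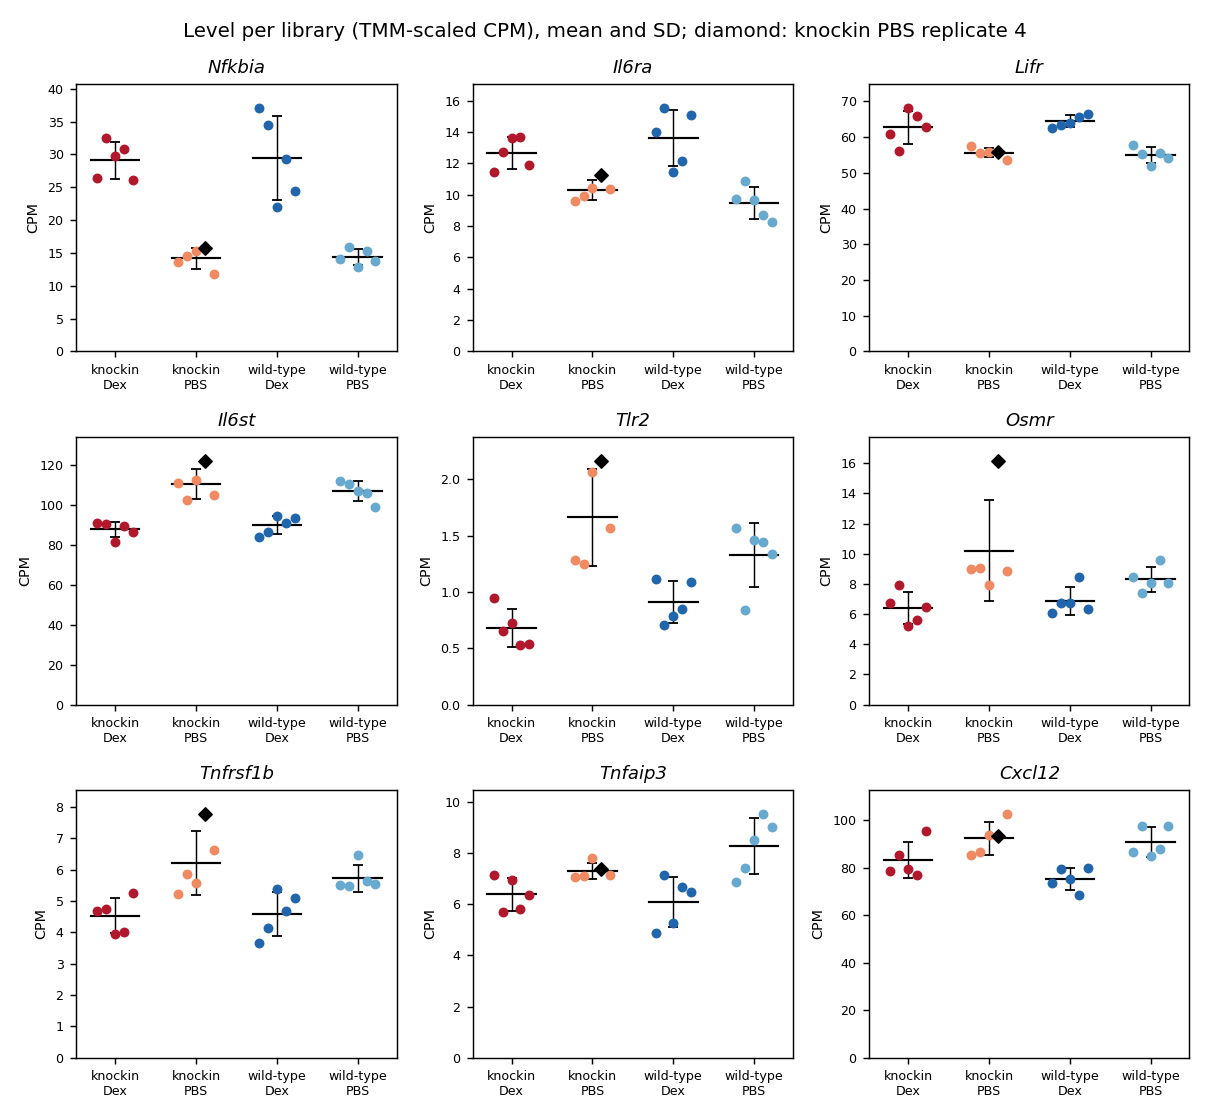
Level per library in CPM for 9 members called under Dex in at least 1 genotype; bars are the mean and SD of 5 libraries, and the black diamond is knockin PBS replicate 4. Nfkbia separates Dex from PBS in both genotypes (29.1 and 29.5 CPM under Dex, 14.2 and 14.4 CPM under PBS), Il6st lies lower under Dex, and the diamond stands apart for Osmr (16.1 CPM).

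Among the 6 receptors for interleukin-1, TNF and bacterial ligands, Tlr2 and Tnfrsf1b fell in knockin mice and no member passed the test in wild-type mice. Of all genes, 4.71% were called lower in knockin mice, and 9.21% were called in either direction in wild-type mice. Tlr2, the receptor for bacterial lipoproteins, had 0.944, 0.656, 0.727, 0.526 and 0.542 CPM in knockin Dex and 1.28, 1.25, 2.07, 2.16 and 1.57 CPM in knockin PBS libraries. In wild-type mice Tlr2 had 1.12, 0.703, 0.785, 0.845 and 1.09 CPM under Dex and 1.57, 0.844, 1.46, 1.45 and 1.34 CPM under PBS. The knockin groups did not overlap; in wild-type mice PBS replicate 2 lay among the Dex libraries. Tlr2 fell by 1.24 in knockin mice (SE 0.223, adjusted p = 0.000272), and in every fit that left out 1 library (-1.45 to -1.11); its wild-type value was -0.52 (adjusted p = 0.18). Its mean response over both genotypes was -0.88 (SE 0.159, adjusted p = 0.000146).

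Tnfrsf1b, the TNF receptor that is mainly found on microglia in the brain, had 4.70, 4.73, 3.95, 4.00 and 5.27 CPM in knockin Dex and 5.23, 5.86, 5.57, 7.77 and 6.62 CPM in knockin PBS libraries. In wild-type mice Tnfrsf1b had 3.66, 4.15, 5.40, 4.68 and 5.09 CPM under Dex and 5.51, 5.47, 6.48, 5.63 and 5.54 CPM under PBS. Here the wild-type groups did not overlap and the knockin groups did, by 1 library. Tnfrsf1b fell by 0.45 in knockin mice (SE 0.117, adjusted p = 0.0107), and this call did not survive leaving out knockin PBS replicate 4 (-0.35, adjusted p = 0.0567). The wild-type value was -0.32 (SE 0.119, adjusted p = 0.108), and the mean response of -0.38 passed the test (SE 0.084, adjusted p = 0.00128).

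Il1r1, the interleukin-1 receptor, was the member of this group with values above 0 in both genotypes. It had 17.3, 20.3, 16.5, 22.7 and 15.9 CPM in knockin Dex and 12.2, 10.7, 10.2, 23.0 and 16.3 CPM in knockin PBS libraries. In wild-type mice Il1r1 had 17.7, 19.3, 17.5, 19.2 and 16.8 CPM under Dex and 15.2, 15.6, 9.85, 10.4 and 11.2 CPM under PBS. The wild-type groups did not overlap, while knockin PBS replicate 4 was the highest of all 20 libraries. Il1r1 was at 0.36 in knockin mice (SE 0.195, adjusted p = 0.323) and 0.53 in wild-type mice (SE 0.199, adjusted p = 0.122), and its mean response of 0.45 passed the test (SE 0.14, adjusted p = 0.0335). Without knockin PBS replicate 4 Il1r1 was higher in both genotypes, by 0.62 in knockin mice (adjusted p = 0.0122) and by 0.53 in wild-type mice (adjusted p = 0.0212). The call of the mean response was lost in 10 of 20 fits that left out 1 library (adjusted p up to 0.0719): knockin Dex replicates 2 and 4, knockin PBS replicates 1 to 3, wild-type Dex replicates 2 and 4, and wild-type PBS replicates 3 to 5. Tnfrsf1a, the broadly expressed TNF receptor, was at -0.30 in knockin (adjusted p = 0.0614) and 0.02 in wild-type mice, Cd14, the lipopolysaccharide co-receptor, at -0.52 (adjusted p = 0.0887) and 0.14, and Tlr4, the lipopolysaccharide receptor, at -0.18 and 0.12.

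Markers of microglia were summed to be read beside the values of these receptors. The summed level of 12 microglia markers was 384.7 to 423.7 CPM in knockin Dex, 455.3 to 529.9 CPM in knockin PBS, 405.5 to 437.1 CPM in wild-type Dex and 471.7 to 543.2 CPM in wild-type PBS libraries, so the Dex groups lay below the PBS groups in both genotypes. Of the 12 markers 8 were called lower in knockin and 7 in wild-type mice, and none higher. Among all genes 4.71% were called lower in knockin and 3.94% in wild-type mice. Abundant markers included Csf1r (114.6 CPM) and Cx3cr1 (54.7 CPM). The part of this shift in the values of Tlr2, Tnfrsf1b and the other receptors was not tested. Summed markers of hippocampal neurons overlapped between the groups, at 11350 to 12540 CPM in knockin Dex, 11110 to 12540 CPM in knockin PBS, 11530 to 12380 CPM in wild-type Dex and 10960 to 12240 CPM in wild-type PBS libraries.

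Of the 2 adaptors and 7 transcription factors, 1 was called in knockin and none in wild-type mice, where 10% and 9.21% of all genes were called. Myd88, the adaptor of Toll-like and interleukin-1 receptors, was at -0.01 in knockin and -0.14 in wild-type mice, and Irak1 at 0.01 and -0.04, none called. Of 7 transcription factors Rela alone was called in a single genotype: Rela, the main activating NF-kappaB subunit, had 17.9, 18.0, 18.3, 19.5 and 16.7 CPM in knockin Dex and 18.9, 20.4, 21.2, 21.7 and 21.0 CPM in knockin PBS libraries, which overlapped. It had 19.7, 20.8, 17.9, 19.4 and 18.6 CPM in wild-type Dex and 18.7, 18.3, 20.0, 18.5 and 21.6 CPM in wild-type PBS libraries. Rela fell by 0.18 in knockin mice (SE 0.058, adjusted p = 0.0422) and was at -0.02 in wild-type mice (SE 0.059, adjusted p = 0.919). The knockin call was lost without any 1 of 8 libraries, the knockin Dex and PBS libraries other than Dex replicate 4 and PBS replicate 1 (adjusted p up to 0.112). Relb, the subunit of the non-canonical pathway, passed the test for the mean response (-0.25, SE 0.075, adjusted p = 0.0172), with -0.23 in knockin and -0.28 in wild-type mice. Nfkb1, Nfkb2, Stat3, Cebpb and Cebpd were not called; the largest of their values in size was 0.50 for Cebpd, the glucocorticoid-responsive C/EBP delta, in wild-type mice (adjusted p = 0.317), against 0.22 in knockin mice.

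Of the 4 feedback inhibitors, Nfkbia rose in both genotypes, and none of the others rose. Nfkbia, encoding IkappaB alpha (mm39 chromosome 12, 55536195 to 55539432, minus strand), had 26.4, 32.5, 29.7, 30.9 and 26.1 CPM in knockin Dex and 13.6, 14.6, 15.3, 15.8 and 11.8 CPM in knockin PBS libraries. In wild-type mice Nfkbia had 37.1, 34.4, 22.1, 29.3 and 24.4 CPM under Dex and 14.1, 15.9, 12.9, 15.3 and 13.8 CPM under PBS. All 10 Dex libraries lay above all 10 PBS libraries, which was so for 2.19% of all genes. Nfkbia rose by 1.02 in knockin mice (SE 0.123, adjusted p = 7.91e-06) and by 1.04 in wild-type mice (SE 0.123, adjusted p = 7.46e-06), which is 2.03-fold and 2.05-fold. The difference of the responses was -0.02, with an interval of 2 SE from -0.36 to 0.33, so a genotype difference within that range is not excluded by these libraries.

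Tnfaip3, encoding the ubiquitin-editing enzyme A20 that ends NF-kappaB activation, moved the other way. It had 7.13, 5.72, 6.96, 5.82 and 6.35 CPM in knockin Dex and 7.09, 7.11, 7.80, 7.37 and 7.14 CPM in knockin PBS libraries. In wild-type mice Tnfaip3 had 4.86, 7.16, 5.26, 6.68 and 6.49 CPM under Dex and 6.88, 7.41, 8.51, 9.52 and 9.03 CPM under PBS. Both pairs of groups overlapped by 1 Dex library. Tnfaip3 fell by 0.46 in wild-type mice (SE 0.105, adjusted p = 0.0039), its knockin value was -0.18 (SE 0.104, adjusted p = 0.327), and the difference of the responses was 0.28 (SE 0.147, unadjusted p = 0.0722). Nfkbia and Tnfaip3, both with kappaB matches in the promoters printed above, thus had opposite directions in wild-type mice. Nfkbiz, encoding IkappaB zeta, was at 0.09 in knockin and -0.04 in wild-type mice.

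The value of Socs3, the inhibitor of gp130 signalling, moved with 1 library. Socs3 had 1.22, 1.17, 0.883, 1.12 and 1.77 CPM in knockin Dex and 1.42, 1.66, 2.07, 5.77 and 1.74 CPM in knockin PBS libraries. In wild-type mice it had 1.23, 2.11, 1.06, 1.08 and 1.30 CPM under Dex and 1.71, 0.954, 1.30, 1.98 and 1.89 CPM under PBS. Groups overlapped in both genotypes. The knockin value of Socs3 was -1.07 (SE 0.341, adjusted p = 0.0507), and -0.47 without knockin PBS replicate 4 (adjusted p = 0.237); the wild-type value was -0.20 (SE 0.366, adjusted p = 0.835).

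The endothelial selectins, which let leukocytes roll along activated venules, were nearly absent in Dex libraries. Sele, E-selectin (mm39 chromosome 1, 163875773 to 163885246, plus strand), had 0, 0, 3, 4 and 1 read pairs in knockin Dex and 10, 60, 24, 136 and 1 in knockin PBS libraries. In wild-type mice Sele had 2, 6, 1, 1 and 3 read pairs under Dex and 14, 0, 9, 10 and 1 under PBS. In knockin mice 4 of 5 PBS libraries exceeded every Dex library and replicate 5, the shallowest library of the 20, did not. Sele fell by 5.02 in knockin mice (SE 1.08, adjusted p = 0.00473), and by 4.19 without knockin PBS replicate 4 (SE 1.04, adjusted p = 0.0137). Across the 20 fits without 1 library the knockin value ran from -5.61 to -4.19 (adjusted p up to 0.0193). The wild-type value of Sele was -1.13 with a wide error (SE 1.36, adjusted p = 0.731). The difference of the responses, -3.89 (SE 2.10, unadjusted p = 0.0815), did not pass either. Of the tested members Sele alone passed the filter on low counts through PBS libraries only. The limit was reached by 5 PBS libraries and 0 Dex libraries, and no Dex library had more than 6 read pairs. The fall of Sele, with the p-values and left-out fits above, is therefore a description. With no filter its knockin value was -5.01 (adjusted p = 0.00964).

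Selp, P-selectin, lies beside Sele on the chromosome (163942833 to 163977595, plus strand). It had 4, 0, 0, 3 and 2 read pairs in knockin Dex and 8, 39, 22, 251 and 4 in knockin PBS libraries. In wild-type mice it had 1, 2, 1, 0 and 2 read pairs under Dex and 4, 3, 4, 6 and 1 under PBS. Scaled to depth the knockin groups of Selp did not overlap, with at most 0.105 CPM under Dex and at least 0.285 CPM under PBS. Fitted with no filter on low counts, Selp fell by 5.34 in knockin mice (SE 1.07, adjusted p = 0.0047) and was at -1.29 in wild-type mice (SE 1.88, adjusted p = 0.863). Without knockin PBS replicate 4, in a fit chosen after the data were seen, the knockin value was -3.72 (SE 0.579, adjusted p = 8.44e-06). Exons of Selp overlap 2 genes on the other strand, and the counting ignored strand.

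The 2 adhesion molecules that bind integrins did not follow the selectins. Icam1 was at -0.47 in knockin (SE 0.187, adjusted p = 0.129) and -0.04 in wild-type mice, and Vcam1 at -0.08 and 0.08. Summed markers of endothelial cells ran from 406.1 to 458 CPM in knockin Dex, 406.3 to 490.1 CPM in knockin PBS, 410.1 to 475.8 CPM in wild-type Dex and 453.5 to 493.7 CPM in wild-type PBS libraries. The knockin ranges overlapped. For 4 markers of venous endothelium, where selectins are mainly made, the sums were 67.9 to 83.2 CPM in knockin Dex, 86.9 to 97.0 CPM in knockin PBS, 63.4 to 94.9 CPM in wild-type Dex and 72.0 to 98.0 CPM in wild-type PBS libraries. The knockin groups did not overlap on that sum; its part in the selectin values was not tested.

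Ch25h, which makes the oxysterol 25-hydroxycholesterol, was the one mediator enzyme called. It had 0.210, 0.141, 0.156, 0.386 and 0.0985 CPM in knockin Dex and 0.427, 0.554, 0.425, 1.88 and 0.0871 CPM in knockin PBS libraries. In wild-type mice Ch25h had 0.501, 0.959, 0.307, 0.307 and 0.312 CPM under Dex and 0.475, 0.147, 0.127, 0.381 and 0.163 CPM under PBS. The groups overlapped in both genotypes, and the medians lay in opposite order. Ch25h fell by 1.79 in knockin mice (SE 0.547, adjusted p = 0.0394), a call lost without any 1 of knockin Dex replicates 1, 2, 3 or 5 or knockin PBS replicate 4, the last giving -0.94 (adjusted p = 0.256). Its wild-type value was 0.98 (SE 0.603, adjusted p = 0.403). Ptgs2, cyclooxygenase-2, which neurons of the hippocampus express, was at 0.12 in knockin and 0.17 in wild-type mice, and the metalloreductase gene Steap4 at -0.56 and -0.03, none called.

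Acute-phase and alarmin genes varied widely between mice of 1 group. Lcn2, the siderophore-binding lipocalin, had 1.99, 4.45, 2.81, 4.35 and 3.89 CPM in knockin Dex and 1.03, 3.05, 3.13, 15.1 and 0.261 CPM in knockin PBS libraries. In wild-type mice Lcn2 had 5.36, 15.8, 2.80, 3.61 and 5.77 CPM under Dex and 2.52, 0.330, 0.254, 0.609 and 0.261 CPM under PBS. The wild-type groups did not overlap, whereas the knockin PBS libraries spanned the range from nearly the lowest to nearly the highest level seen. The wild-type rise of Lcn2 was lost without any 1 of 7 wild-type libraries, Dex replicates 1, 2 and 5 and PBS replicates 2 to 5 (2.59 to 3.24, adjusted p up to 0.104). In knockin mice Lcn2 was at -0.49 (adjusted p = 0.784), and at 0.81 once knockin PBS replicate 4 was left out (adjusted p = 0.551). With all libraries its mean response was 1.34 (SE 0.589, adjusted p = 0.139), and without knockin PBS replicate 4 it was 1.99 (adjusted p = 0.00818).

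S100a9, a subunit of the neutrophil alarmin calprotectin, had 0.0629, 0.656, 0.416, 0.351 and 0.0985 CPM in knockin Dex and 0.463, 0.277, 1.01, 3.24 and 0.435 CPM in knockin PBS libraries. In wild-type mice it had 0.270, 0.128, 0.239, 0.154 and 0.156 CPM under Dex and 0.807, 0.183, 0.127, 0.228 and 0.489 CPM under PBS. Groups overlapped in both genotypes; S100a9 was at -1.99 in knockin mice (SE 0.681, adjusted p = 0.0774), at -0.92 without knockin PBS replicate 4 (adjusted p = 0.367), and at -0.82 in wild-type mice. Its partner S100a8 had 3 to 6 read pairs in knockin Dex, 2 to 45 in knockin PBS, 0 to 10 in wild-type Dex and 1 to 11 in wild-type PBS libraries. Fitted with no filter on low counts, S100a8 was at -2.185 in knockin (adjusted p = 0.0608) and -0.418 in wild-type mice (adjusted p = 0.935). Without knockin PBS replicate 4, in a fit chosen after the data were seen, its knockin value was -1.408 (adjusted p = 0.113). The summed level of 10 neutrophil markers was 5.24 to 7.81 CPM in knockin Dex, 8.13 to 11.9 CPM in knockin PBS, 5.72 to 7.33 CPM in wild-type Dex and 7.94 to 9.81 CPM in wild-type PBS libraries. The groups did not overlap in either genotype. Most of that sum was Csf3r (5.48 CPM on average), a receptor gene that microglia also express, and up to 5 of the 10 markers were at 0 in a library; its part in the alarmin values was not tested.

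C3, the central complement component, had 1.93, 3.65, 1.30, 3.61 and 1.48 CPM in knockin Dex and 2.39, 4.29, 1.80, 5.69 and 1.31 CPM in knockin PBS libraries. In wild-type mice C3 had 1.85, 5.30, 0.820, 2.92 and 1.77 CPM under Dex and 19.0, 8.44, 1.27, 1.83 and 1.14 CPM under PBS. Wild-type PBS replicates 1 and 2 stood apart, and the same libraries held 257.7 and 156.4 CPM summed over 16 liver transcripts, against 5.00 to 61.1 CPM in the other 18. C3 was at -1.42 in wild-type mice (SE 0.756, adjusted p = 0.324) and at 0.81 without those libraries (adjusted p = 0.536); the part of the liver transcripts in it was not tested.

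**Figure D3:**
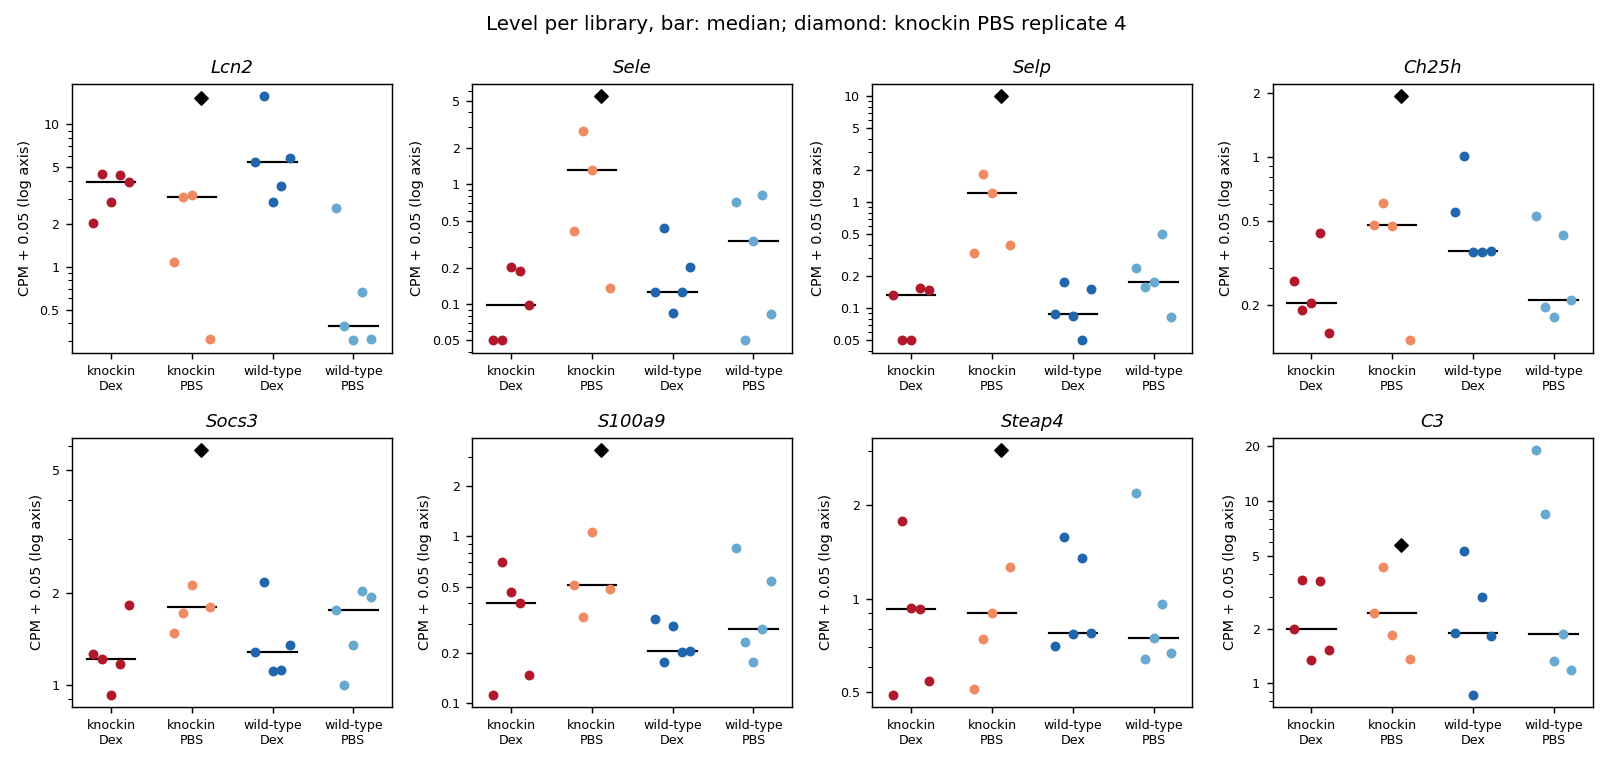
Level per library, as CPM plus 0.05 on a log axis, for 8 members with a wide spread between mice, chosen after their values were seen; bars are medians of 5 libraries and the black diamond is knockin PBS replicate 4. The diamond is the highest point for Sele (5.45 CPM), Selp (10.05 CPM), Ch25h (1.88 CPM), Socs3 (5.77 CPM), S100a9 (3.24 CPM) and Steap4 (2.96 CPM), while C3 peaks in wild-type PBS replicate 1 (19.0 CPM).

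Knockin PBS replicate 4 stood apart on many of these genes. It held the highest level of all 20 libraries for 22 of 39 members, against 6.97% of all genes tested, and the highest of its group for 30 of 39, against 23.7%. The 39 include 5 genes that did not pass the filter, and of these Selp, S100a8, Ccl2 and Il1b are among the 22. The members were chosen with earlier results of these data known, so these counts are a description. No other library was the highest of 20 for more than 3 members. As a ratio to the next library its level was highest for Selp (10.05 against 1.80 CPM), and it also stood above it for S100a9 (3.24 against 1.01 CPM) and Socs3 (5.77 against 2.11 CPM). It also led for Osmr, Cd14, Nfkb2 and Myd88, with 16.1, 3.84, 5.41 and 7.65 CPM.

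Markers of blood leukocytes were measured beside these values. A sum over 7 neutrophil granule genes came to 49 read pairs or 1.97 CPM in knockin PBS replicate 4, against 0.342 to 1.02 CPM in the other 19 libraries; this sub-list was chosen after values were seen. The granule gene Ngp had 17 read pairs in it and 0 to 10 in the others, the monocyte genes Ly6c2 and Ccr2 had 8 and 55 read pairs in it and 0 to 4 and 1 to 23 in the others. The sum over the whole list of 6 monocyte genes, 146.8 CPM in this library, did not single it out, since it reached 149.6 CPM in knockin Dex replicate 4. Nor did the lymphocyte sum, at 1.32 CPM in it and 1.35 CPM in knockin PBS replicate 3. Its endothelial and microglial sums, 406.3 and 455.3 CPM, were the lowest of its group. The part of any of these in the high levels was not tested.

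**Figure D4:**
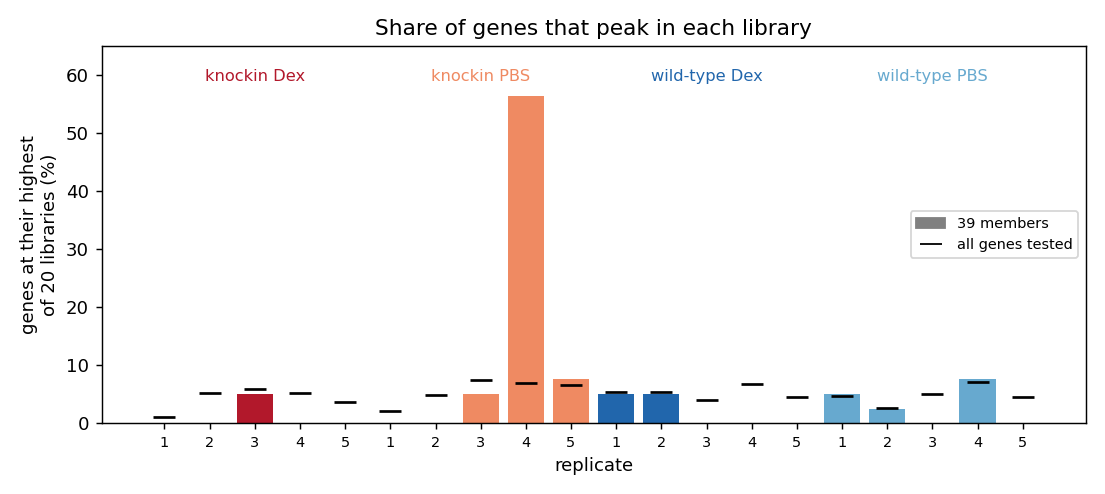
Percent of the 39 genes (bars) and of all genes tested (black dashes) whose highest level of the 20 libraries falls in each library, by group and replicate. Knockin PBS replicate 4 holds 22 of the 39 genes, against 6.97% of all genes tested, and every other library holds at most 3. The 39 include 5 genes that did not pass the filter.

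Without knockin PBS replicate 4 the count of members called in knockin mice was 8, 4 higher and 4 lower, and the median of the 34 was -0.12; 10.4% of 18771 genes were called in that fit. Nfkbia (1.06), Il6ra (0.33), Lifr (0.17), Il6st (-0.30), Osmr (-0.45), Tlr2 (-1.11) and Sele (-4.19) kept their calls, Il1r1 gained one, and Ch25h, Tnfrsf1b and Rela lost theirs. In wild-type mice 8 members were then called, 5 higher and 3 lower, with Il1r1 added, against 9.42% of genes. For the mean response 14 were called, 6 higher and 8 lower, against 18.5% of genes, with Lcn2 and Cebpd added (Cebpd 0.51, adjusted p = 0.0412). The knockin and mean-response counts again include Sele, whose fall is a description.

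Knockin was compared with wild-type under each treatment to ask whether the receptor forms set the level of these genes. Under Dex, 0 members and 0 of 18648 genes were called by edgeR; at unadjusted p below 0.05 there was 1 member of 34, Cxcl12 (0.14, SE 0.061, unadjusted p = 0.0302), and 4.44% of all genes. DESeq2's Wald test and limma-voom likewise called 0 members, with 2 members each at unadjusted p below 0.05. The median of the 34 members was -0.05. The levels of Nfkbia then differed by -0.01 (SE 0.116) and those of Il6st by -0.03 (SE 0.046).

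Under PBS, 0 members and 0 genes were called by edgeR, and 7 members were higher in knockin mice at unadjusted p below 0.05, against 1.9% of all genes in that direction. They were Sele (2.84, unadjusted p = 0.0038), Ch25h (1.65, unadjusted p = 0.00698), Lcn2 (2.73, unadjusted p = 0.00871), Icam1 (0.51, unadjusted p = 0.0126), S100a9 (1.65, unadjusted p = 0.0223), Socs3 (0.76, unadjusted p = 0.0362) and Osmr (0.33, unadjusted p = 0.0488). Each of the 7 had an adjusted p of 1 and overlapping groups. DESeq2's Wald test and limma-voom also called 0 members, with 7 and 1 at unadjusted p below 0.05. Values above 0 were found for 30 of 34 members (88.2%, against 50.5% of all genes), with a median of 0.10.

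This comparison and the Dex response in knockin mice share the knockin PBS libraries, and both moved with 1 of them. Without knockin PBS replicate 4, 21 of 34 members were above 0, the median was 0.02, and 1 member remained at unadjusted p below 0.05, Sele (2.01, SE 0.81, unadjusted p = 0.0244). Lcn2 then stood at 1.43 (unadjusted p = 0.104), Ch25h at 0.79, S100a9 at 0.58, Icam1 at 0.33, Socs3 at 0.15 and Osmr at 0.09. Selp, in the fit with no filter, was 4.20 higher in knockin mice (SE 0.958, unadjusted p = 0.00045, adjusted p = 0.876) and 2.55 higher without that library (SE 0.52, adjusted p = 0.537). Neither selectin passed the adjusted test in any of these fits.

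**Figure D5:**
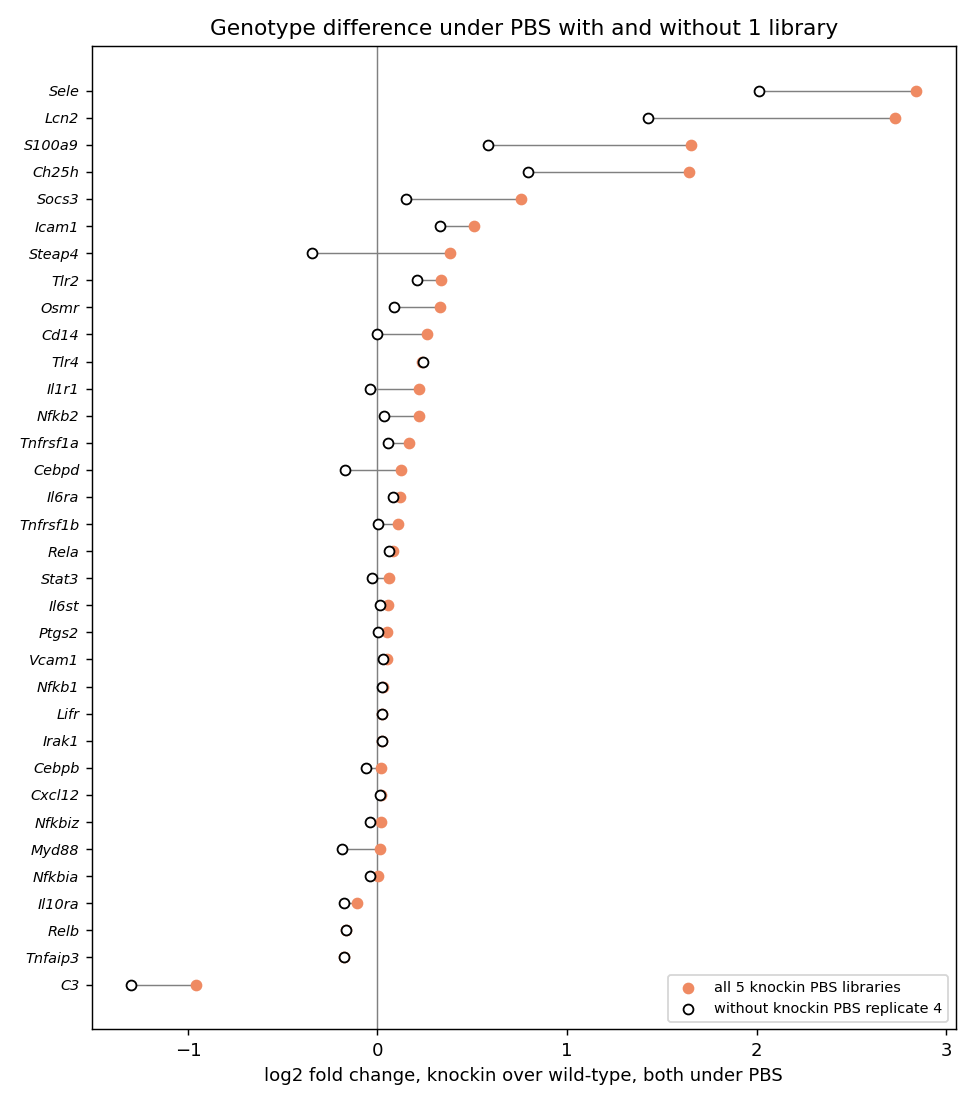
Log2 fold change of knockin over wild-type under PBS for the 34 tested members with all 5 knockin PBS libraries (filled) and without knockin PBS replicate 4 (open); no SE is drawn, and no member passed the adjusted test. Lcn2 moves to 1.43 without the library, against 2.73 with it, and Sele to 2.01, against 2.84.

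The difference of the Dex responses between genotypes was tested directly as the interaction. It called 0 members and 0 genes by edgeR, DESeq2's Wald test and limma-voom. At unadjusted p below 0.05 edgeR gave 5 members, all with the lower value in knockin mice (1.43% of all genes in that direction), DESeq2 6 and limma-voom 4. The 5 were Ch25h (-2.77, SE 0.816, unadjusted p = 0.00271), Lcn2 (-3.65, SE 1.17, unadjusted p = 0.00643), Cd14 (-0.65, SE 0.267, unadjusted p = 0.0219), Tlr2 (-0.72, SE 0.319, unadjusted p = 0.0323) and Tnfrsf1a (-0.32, SE 0.144, unadjusted p = 0.0358), each with an adjusted p of 1. Without knockin PBS replicate 4, Ch25h (-1.92, unadjusted p = 0.00688) and Lcn2 (-2.35, unadjusted p = 0.0316) remained below 0.05, and Tlr2 was at -0.59 (unadjusted p = 0.0778). Responses called in 1 genotype alone, such as Tlr2, Osmr and Sele in knockin or Tnfaip3, Cxcl12 and Lcn2 in wild-type mice, were therefore not shown to differ between genotypes.

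Other genes of the same pathways were read from 9 lists, whose counts stand against the background of 10% of all genes called in knockin mice (5.28% higher, 4.71% lower) and 9.21% in wild-type mice (5.27% higher, 3.94% lower). In knockin and wild-type mice the share called was 65% and 70% of the glucocorticoid targets, 28% and 28% of the interleukin-1 and Toll-like receptor genes, 29.2% and 29.2% of the interleukin-6 and JAK-STAT genes and 28.6% and 21.4% of the prostaglandin and oxysterol genes. It was 35.7% and 7.14% of the chemokine genes, 42.9% and 14.3% of the adhesion genes and 15.4% and 15.4% of the TNF superfamily. The shares of the further NF-kappaB genes (6.25% and 3.12%) were below the background, and those of the acute-phase and complement genes (4% and 12%) were below it in knockin mice and near it in wild-type mice. All 9 lists were chosen with earlier results of these data known, so no share above the background is an independent result. The glucocorticoid list also holds genes known as targets. Of the 20 tested genes of that list, which mixes general glucocorticoid targets with anti-inflammatory genes, 10 were called higher and 3 lower in knockin mice. In wild-type mice 11 were called higher and 3 lower. Tsc22d3, the glucocorticoid-induced leucine zipper that binds NF-kappaB, averaged 153 ± 29.0 CPM in knockin Dex, 42.8 ± 5.83 CPM in knockin PBS, 133 ± 14.4 CPM in wild-type Dex and 41.0 ± 4.53 CPM in wild-type PBS libraries (SD, n = 5 each). It rose by 1.82 in knockin and 1.70 in wild-type mice. Map3k6 rose by 2.60 and 2.57, Fkbp5, the receptor co-chaperone, by 1.58 and 1.61, and the metallothionein gene Mt2 by 1.54 and 1.55 in knockin and wild-type mice.

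Of 32 further NF-kappaB signalling genes, 1 rose and 1 fell in knockin mice and 1 fell in wild-type mice. The one that fell in both was Bcl3, an IkappaB family co-regulator of NF-kappaB, at 0.348 ± 0.184 CPM in knockin Dex, 1.07 ± 0.490 CPM in knockin PBS, 0.210 ± 0.135 CPM in wild-type Dex and 0.699 ± 0.260 CPM in wild-type PBS libraries (SD, n = 5 each). Its log2 fold changes were -1.61 in knockin (SE 0.352, adjusted p = 0.00227) and -1.57 in wild-type mice (SE 0.419, adjusted p = 0.0147). Tbk1, a kinase of the interferon arm, rose by 0.15 in knockin mice.

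Of 25 tested interleukin-1 and Toll-like receptor genes, 5 rose and 2 fell in knockin mice, and 4 rose and 3 fell in wild-type mice. Of the RNA sensors, Tlr7 rose by 1.27 in knockin and 1.18 in wild-type mice and Tlr13 by 0.46 and 0.69, while Tlr3, which senses double-stranded RNA, fell by 0.77 and 0.90. Tlr12, a sensor of the parasite protein profilin, fell by 1.26 and 1.46. Tlr7 averaged 9.72 ± 2.95 CPM in knockin Dex and 4.04 ± 0.484 CPM in knockin PBS, and 9.01 ± 2.16 CPM in wild-type Dex and 3.95 ± 0.167 CPM in wild-type PBS libraries (SD, n = 5 each). Tlr7 is expressed by microglia, and the part of the microglia marker shift in its value was not tested.

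Of 24 interleukin-6 family and JAK-STAT genes, 6 rose and 1 fell in each genotype. Stat5a averaged 3.59 ± 0.849 CPM in knockin Dex, 1.89 ± 0.154 CPM in knockin PBS, 3.84 ± 0.857 CPM in wild-type Dex and 1.42 ± 0.268 CPM in wild-type PBS libraries (SD, n = 5 each). Stat5a rose by 0.93 in knockin and 1.41 in wild-type mice, Stat5b by 0.35 and 0.50, and Il11ra1, the interleukin-11 receptor, by 0.40 and 0.44. Exons of Stat3 and Stat5a overlap on opposite strands by 72 bases, and Stat3 itself was at 0.03 and 0.05. The gene that fell was Jak3 in knockin mice (-0.59) and Lif in wild-type mice (-1.19).

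Of 13 TNF superfamily genes, Tnfsf10, the death ligand TRAIL, and Tnfrsf19 fell in both genotypes. Tnfsf10 averaged 2.27 ± 0.721 CPM in knockin Dex, 5.90 ± 0.551 CPM in knockin PBS, 2.55 ± 0.581 CPM in wild-type Dex and 5.22 ± 0.786 CPM in wild-type PBS libraries (SD, n = 5 each). Its log2 fold changes were -1.37 in knockin and -1.04 in wild-type mice, and those of Tnfrsf19 were -0.47 and -0.50. Of 14 chemokine genes and receptors, 1 rose and 4 fell in knockin mice and 1 fell in wild-type mice. Cxcr4, the receptor for Cxcl12, fell by 0.43 in knockin mice. Ccr2, the monocyte receptor, fell by 2.29 in knockin mice, but without knockin PBS replicate 4, where Ccr2 had 55 read pairs, neither it nor Ackr1 was called, leaving 1 higher and 2 lower.

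Of 14 leukocyte adhesion genes, 1 rose and 5 fell in knockin mice and 1 rose and 1 fell in wild-type mice. Icam2, an endothelial integrin ligand, averaged 1.39 ± 0.304 CPM in knockin Dex, 2.28 ± 0.230 CPM in knockin PBS, 1.37 ± 0.295 CPM in wild-type Dex and 2.38 ± 0.470 CPM in wild-type PBS libraries (SD, n = 5 each), and fell by 0.73 and 0.75 in knockin and wild-type mice. The integrin genes Itgal and Itgam fell by 1.47 and 0.64 in knockin mice. Of 14 prostaglandin and oxysterol genes, 1 rose and 3 fell in knockin and 1 rose and 2 fell in wild-type mice. Ptges, the inducible prostaglandin E synthase, fell by 0.85 in knockin and 0.55 in wild-type mice, and Hpgds by 0.47 and 0.54. Of 25 acute-phase and complement genes, 1 rose in knockin and 3 in wild-type mice and none fell. Serpina3n, an astrocyte acute-phase inhibitor, rose by 0.54 in knockin and 0.56 in wild-type mice, and C1qa and C1qb by 0.18 and 0.30 in wild-type mice.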

How the data were processed

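Poly(A) RNA was sequenced as paired-end reads. Each deposited file gives the raw count of read pairs assigned to each gene in 1 library, obtained by the authors with featureCounts 2.0.6 and GENCODE M34, per the file headers. Those headers record no strand option and no multi-mapping pairs, so reads of antisense partners cannot be told apart; exons of 9 members overlap another gene, the most for Icam1 (20.2% of its exon length), Cebpd (15.0%) and Selp. The submitters' processing notes name STAR 2.5.1, Subread 1.5.1, DESeq2 1.38.3 and mm39. Symbols came from a table made for an older annotation; 51884 of 57126 identifiers matched, and the 5242 others held 0.264% to 0.337% of a library's counts. No pair of libraries in a group was a duplicate (40 pairs, chi-square per gene 2.51 to 12.6).

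Counts were fitted with edgeR 4.0.16 in R 4.3.3: filterByExpr (minimum count 10, minimum total 15), trimmed-mean scaling and a robust quasi-likelihood model over all 20 libraries with 1 term per group. The mean response is the average of both genotypes' log2 fold changes. Benjamini-Hochberg adjustment ran over all genes tested, and adjusted p below 0.05 was a call; fold changes are on the log2 scale with their SE. The labels call libraries of a group biological replicates; should 2 of them come from the same mouse, the p-values measure technical spread.

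Alternatives were DESeq2 1.42.0 (size factors, Wald test), limma-voom (limma 3.58.1) with quality weights, no filter, at least 50 counts in 5 libraries, a replicate block, the compared groups alone, each library left out, and wild-type PBS replicates 1 and 2 (liver transcripts) or wild-type PBS replicate 4 and knockin Dex replicate 2 (choroid plexus transcripts) left out. A fit with no filter and without knockin PBS replicate 4 was chosen after the data were seen. The test scripts were tested on simulated data. The members, 9 pathway lists (226 entries) and 15 cell marker lists (141 genes) were chosen with earlier results of these data known. Any member may be named, up to 4 called genes per pathway list with the largest change, and up to 3 genes of the highest level per marker list; Ngp, Ly6c2, the neutrophil granule sub-list and the 16 liver genes (without Ttr and Trf) were chosen after values were seen. For some single genes no value is reported here. The kappaB consensus has 10 letters and was searched on both strands, as were the other motifs, in RefSeq promoter windows of 300 bases.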

Additional observations from a re-analysis of the deposited data

Results flagged for a closer look

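In groups of 5 libraries, 16 of 156 combinations of member and group had a highest or lowest library whose gap to the nearest other, divided by the group's range, passed Dixon's critical value of 0.71. Chance flags about 1 in 20 groups, or 5%, where values are independent and normally spread. Members share libraries and some have very few reads, so the 16 cannot be judged against that share. Of the 16, 7 lay in knockin PBS replicate 4, all as the highest: Selp (10.05 CPM), S100a9 (3.24 CPM), Ch25h (1.88 CPM), Lcn2 (15.1 CPM), Socs3 (5.77 CPM), Osmr (16.1 CPM) and Nfkb2 (5.41 CPM). In wild-type Dex replicate 2, Lcn2 (15.8 CPM) and Socs3 (2.11 CPM) stood apart. In wild-type PBS replicate 1, Lcn2 (2.52 CPM) and Steap4 (2.14 CPM) did so. That library had the highest sum over the 16 liver transcripts, a sub-list chosen after values were seen. Single values were Tnfrsf1b in wild-type PBS replicate 3 (6.48 CPM), Osmr in wild-type Dex replicate 4 (8.45 CPM) and Tlr4 in knockin PBS replicate 5 (3.14 CPM), the shallowest library. Ccl2 in knockin Dex replicate 2 (0.0937 CPM, 2 read pairs) and in wild-type Dex replicate 1 (0.0386 CPM, 1 read pair) rests on too few reads to be read as a difference.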

How the results depend on the processing

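Across the alternatives run, members called ranged from 7 to 13 in knockin mice, 6 to 9 in wild-type mice and 9 to 14 for the mean response, and no member called in the main analysis changed sign. Leaving out each library in turn gave 8 to 12 members in knockin and 6 to 9 in wild-type mice and 10 to 14 for the mean response, with 1501 to 1955, 1288 to 1784 and 2966 to 3480 genes; the genotype comparisons and the interaction stayed at 0 throughout. Fitting the compared groups alone called 1 gene, no member, between knockin and wild-type mice under Dex, against 0 with all groups; the cause was not tested. DESeq2's Wald test called 13 members in knockin mice, adding Socs3 (-1.06, adjusted p = 0.0153), S100a9 (-1.83, adjusted p = 0.0421) and Tnfrsf1a (-0.31, adjusted p = 0.0455). Lcn2 in wild-type mice was lost with no filter (adjusted p = 0.0678) and without the choroid plexus pair (adjusted p = 0.0819). Osmr in knockin mice was lost when the compared groups were fitted alone (adjusted p = 0.0564).

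Deviations from the group means of same-numbered libraries had r from -0.122 to 0.283 over 30 pairs of libraries (median 0.0068). Differently numbered libraries had r from -0.302 to 0.227 over 120 pairs (median -0.0012). The highest r was that of knockin PBS replicate 4 with knockin Dex replicate 4. A pairing by number was thus not shown, and these values cannot exclude one for single pairs. With the replicate block 10 members were called in knockin mice, 9 of them shared with the fit without it, and 7 in wild-type mice, with 1843 and 1643 genes. Rela lost its knockin call under the block (adjusted p = 0.0636) and Cxcl12 gained one (-0.15, adjusted p = 0.0198).

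At 0 to 17 read pairs per library for Il1b and 0 to 3 for Tnf, no response was called in the fits with no filter on low counts.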
